A study of Mus musculus with 9 samples.

Results

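This account covers 41 genes that encode liver enzymes of amino acid breakdown and one-carbon metabolism. They were taken by name from the deposited count table, in which each of the 41 symbols had 1 row among 55401 genes, and all 41 were among the 12660 genes with enough reads to be tested. RNA came from the left liver lobe in 9 samples, 3 in each of 3 groups of mice, and was sequenced with the QuantSeq 3' kit, which reads the 3' ends of polyadenylated transcripts. STAM + Atglistatin mice were males given 200 µg of streptozotocin under the skin at 2 days of age, and they ate a high-fat diet that contained Atglistatin for 4 weeks from 4 weeks of age. STAM mice received the same streptozotocin and the same diet without Atglistatin. Chow mice received neither compound and ate chow. Streptozotocin destroys the insulin-producing beta cells of the pancreas, and Atglistatin inhibits adipose triglyceride lipase, the product of Pnpla2. Since both STAM groups had streptozotocin and the high-fat diet, the part of each in a difference from chow cannot be told apart. The strain is not given. The labels number the samples of each group and do not say that each is a mouse of its own, so p-values measure the spread between these samples.

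The liver is the main site at which most amino acids are broken down. Transaminases and dehydratases remove the amino group and pass the carbon skeletons to gluconeogenesis, and this traffic is known to rise in fasting and in insulin deficiency. Methionine is turned into S-adenosylmethionine, the methyl donor of the cell, and the homocysteine that remains is either methylated again with betaine or passed on to cysteine and taurine. Serine, glycine and histidine feed carbon into folate, the carrier of single carbon units.

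Values are CPM, read counts scaled to the library size with TMM factors and not to gene length, 1 value per library. Fold changes are on the log2 scale, with SE, from edgeR's quasi-likelihood test, and adjusted p-values are Benjamini-Hochberg values over all 12660 genes. A gene is said to have risen or fallen only at an adjusted p under 0.05. The libraries held 7380365 to 9886129 counts, and the 41 genes took 1.81 to 1.90% of them in STAM + Atglistatin, 2.00 to 2.19% in STAM and 1.83 to 1.93% in chow. Hepatocyte genes were abundant in every library, and the summed level of 7 of them (Alb, Apoa1, Ttr, Serpina1a, Fgb, Apob and Ahsg) was 80516 to 84472 CPM in STAM + Atglistatin, 59237 to 68592 CPM in STAM and 103368 to 115621 CPM in chow. Alb was the most abundant of them. In STAM + Atglistatin against STAM the 7 genes did not move together: 1 rose and 1 fell (median log2 fold change -0.045, range -0.79 to 0.63). In STAM against chow 4 fell (median -0.68), and the range of -1.03 to 0.18 also spanned 0. In STAM + Atglistatin against chow all 7 lay below 0 and 5 fell (median -0.61, range -0.76 to -0.22). This sum and the share of mitochondrially encoded counts (8.64 to 9.73% in STAM + Atglistatin, 11.0 to 11.6% in STAM and 7.32 to 8.78% in chow) moved with the groups, and their part in the results was not tested. The 7 genes went in 1 direction only in STAM + Atglistatin against chow. Their sum is not given as a measure of hepatocyte number or of RNA per hepatocyte. Of the other cell types, 6 Kupffer cell markers summed to 265 to 358 CPM in STAM + Atglistatin, 277 to 324 CPM in STAM and 222 to 289 CPM in chow, 6 lymphocyte markers to 1.24 to 2.51 CPM in STAM + Atglistatin, 0.354 to 3.54 CPM in STAM and 1.63 to 2.89 CPM in chow, and 4 adipocyte markers to 0.0 to 3.01 CPM in STAM + Atglistatin, 0.0 to 0.240 CPM in STAM and 0.0 to 4.22 CPM in chow, with Lep at 0 counts in every library. The 6 stellate cell markers summed to 87.6 to 95.7 CPM in STAM + Atglistatin, 103 to 179.8 CPM in STAM and 78.9 to 246 CPM in chow, so that STAM + Atglistatin lay below STAM without overlap, and the 7 markers of recruited macrophages summed to 17.4 to 28.7 CPM in STAM + Atglistatin, 25.4 to 31.5 CPM in STAM and 10.8 to 45.4 CPM in chow. Some marker sums set chow replicate 7 apart from the other chow libraries, and the Kupffer sum set replicate 8 apart (222 CPM, against 284 and 289 CPM). The 6 proliferation markers summed to 84.1 CPM in chow replicate 7, against 9.76 and 13.9 CPM in the other chow libraries. The 10 markers of pericentral hepatocytes summed to 4217 CPM in chow replicate 7, against 7653 and 6676 CPM in the other chow libraries. Stellate markers summed to 246 CPM in chow replicate 7, against 78.9 and 103 CPM in the other chow libraries, and markers of recruited macrophages to 45.4 CPM in chow replicate 7, against 10.8 and 17.0 CPM in the other chow libraries. The part of these markers in the results was not tested. Counts of genes that passed are also given without chow replicate 7 and without other single libraries.

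Among the 41 genes, 11 passed in at least 1 comparison, and apart from Csad every fold change that passed was within 1 unit of log2. In STAM + Atglistatin against STAM, Bhmt, Sds and Got1 fell and Csad rose, so that 4 of 41 passed, where 1.79% of all tested genes did (0.742% lower and 1.04% higher). In STAM against chow, Mat1a and Got1 rose while Csad, Cdo1 and Haao fell, 5 of 41, where 3.94% of all tested genes passed (1.95% higher and 1.99% lower). In STAM + Atglistatin against chow, Mat1a rose and 6 genes fell (Gnmt, Bhmt, Cbs, Sds, Gldc and Hal), 7 of 41, where 4.08% of all tested genes passed (2.1% higher and 1.97% lower). With library totals in place of TMM the split of the STAM against chow calls was 6 higher and 3 lower, and that of STAM + Atglistatin against chow 2 and 3. Of all tested genes, 4.36% and 4.29% passed with library totals. Without chow replicate 7 the counts were 3 higher and 5 lower in STAM against chow, and 1 higher and 9 lower in STAM + Atglistatin against chow, while the share of all tested genes that passed was 5.54% and 5.79%. Leaving out STAM + Atglistatin replicate 5 took the 6 genes that fell in this last comparison to 0, and leaving out chow replicate 8 took them to 1. Without STAM + Atglistatin replicate 6, 3 genes were lower: Bhmt and Gldc of the 6, and Tat, which did not pass with all libraries. Of all tested genes, 2.36%, 2.45% and 3.24% passed in these fits, in this order. In STAM against chow, 1 gene was lower when chow replicate 8 or 9 or STAM replicate 1 or 2 was left out, and 1 higher when chow replicate 8 or any STAM replicate was. The share of all tested genes that passed was 2.22 to 2.68% in these fits. The gene higher in STAM + Atglistatin than in STAM did not pass when STAM + Atglistatin replicate 5 or 6 or STAM replicate 1 or 2 was left out. There, 1 to 1.44% of all tested genes passed.

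**Figure D1:**
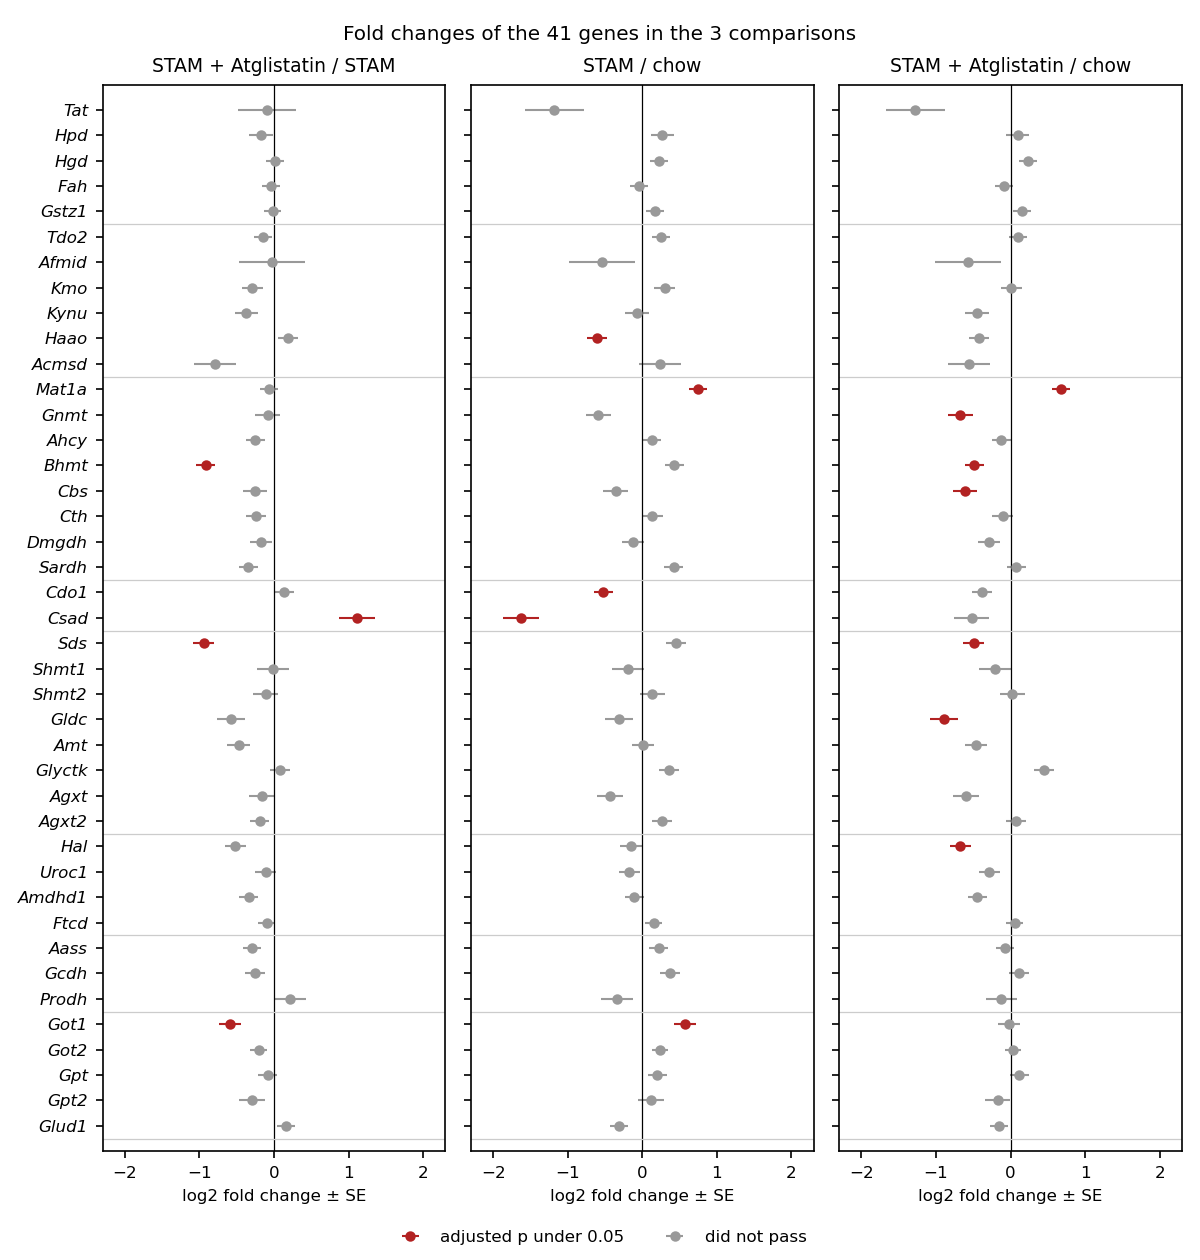
Log2 fold changes (x axis, points with SE) of the 41 genes, grouped by amino acid, in the 3 comparisons; red points passed an adjusted p under 0.05 and grey points did not. Red points number 4 in STAM + Atglistatin / STAM, 5 in STAM / chow and 7 in STAM + Atglistatin / chow, and the widest excursion among them is Csad at -1.63 in STAM / chow.

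A fold change below 0 in STAM + Atglistatin against STAM was measured for 34 of the 41 genes, or 82.9%, where 50.1% of all tested genes lay below 0, and above 0 for 7 genes, where 49.9% of all tested genes did. Most of these differences were small and did not pass: the median of the 41 was -0.17, against -0.00071 over all tested genes. In 17 genes all 3 STAM + Atglistatin libraries lay below all 3 STAM libraries, or 41.5%, beside 8.45% of all tested genes. The opposite separation was found in 1 gene, Cdo1 (background 8.58%). STAM against chow had a median of 0.13 for the 41 genes and -0.0014 for all tested genes. The median of the 41 rested on single libraries: it was 0.032 without chow replicate 7, 0.034 without STAM replicate 3 and 0.058 without chow replicate 9, and 0.22 with library totals, where that of all genes was 0.086. Of the 41, 23 lay above 0 (background 49.9%) and 18 below 0 (background 50.1%). There, 14 genes had every STAM library above every chow library (background 10.6%) and 7 had every STAM library below (background 10.2%). For STAM + Atglistatin against chow the medians were -0.15 and -0.0041, and 14 genes lay above 0 (background 49.4%) and 27 below 0 (background 50.6%), with 2 genes separated upward (background 9.6%) and 10 downward (background 9.03%). The median of the 41 was -0.10 without chow replicate 8 and -0.063 with library totals, where that of all genes was 0.078. Each pair of comparisons shares the libraries of 1 group, so these counts are not independent of each other. By group mean, STAM was the highest of the 3 groups in 21 genes, or 51.2%, beside 31.9% of all tested genes, and STAM + Atglistatin the lowest in 22, or 53.7%, beside 32.6%.

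**Figure D2:**
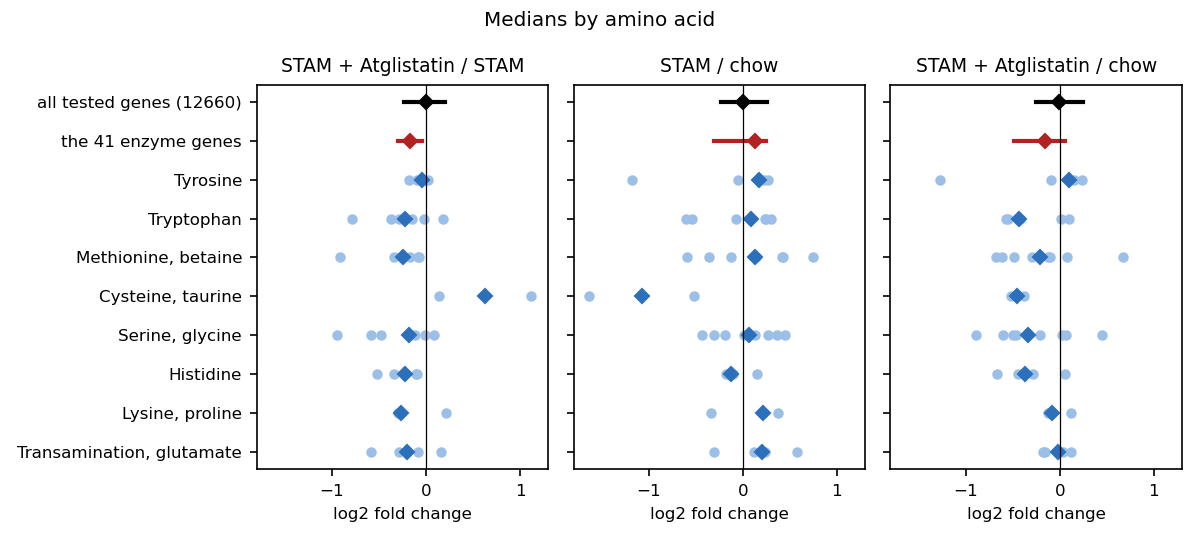
Log2 fold changes (x axis) by amino acid (rows) in the 3 comparisons: pale points are genes, blue diamonds the median of each amino acid, and the red and black diamonds with bars the median and quartiles of the 41 genes and of all tested genes. In STAM + Atglistatin / STAM the median of the 41 genes lies at -0.17, and only the cysteine and taurine pair has a median above 0 (0.63).

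Of the 8 genes of methionine and its methyl groups, 4 passed in at least 1 comparison. Mat1a was higher in both STAM groups than in chow, and Bhmt was lower in STAM + Atglistatin than in the other groups. Mat1a, methionine adenosyltransferase, which makes S-adenosylmethionine in adult hepatocytes, stood at 3091, 3145 and 3433 CPM in STAM + Atglistatin livers, 3021, 3168 and 3973 CPM in STAM livers and 1886, 2143 and 2024 CPM in chow livers. No library of either STAM group overlapped chow. It rose by 0.75 ± 0.12 in STAM against chow (adjusted p = 0.000864) and by 0.68 ± 0.12 in STAM + Atglistatin against chow (adjusted p = 0.00228), and both calls were kept in each of their 12 alternatives. Between STAM + Atglistatin and STAM its fold change was -0.07 ± 0.12 (adjusted p = 0.918), with overlapping libraries. Mat1a lies on chromosome 14, 41105035 to 41124412, plus strand.

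Bhmt, betaine-homocysteine methyltransferase, which returns homocysteine to methionine with a methyl group of betaine, had 960.2, 832 and 1070.3 CPM in STAM + Atglistatin livers, 1740.4, 1726 and 1939 CPM in STAM livers and 1234, 1237 and 1540.2 CPM in chow livers. The 3 groups formed 3 separate ranges, with STAM highest and STAM + Atglistatin lowest. Bhmt fell by 0.92 ± 0.13 in STAM + Atglistatin against STAM (adjusted p = 0.000309), a call kept in all 12 alternatives (adjusted p = 1.09e-10 to 0.00497). Its fall against chow was 0.49 ± 0.13 (adjusted p = 0.0344). That call was lost without STAM + Atglistatin replicate 4 or 5 or chow replicate 8 or 9 (adjusted p = 0.0537 to 0.205), with library totals (0.0545) and with only the 2 groups fitted (0.0831). In STAM against chow the fold change of 0.43 ± 0.13 (adjusted p = 0.0681) did not pass, although it did with library totals (0.00999), with DESeq2 (0.0218), with limma-voom (0.0265), with no low-count filter (0.0202) and when chow replicate 9 was left out (0.0393).

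Gnmt, glycine N-methyltransferase, which uses up S-adenosylmethionine by methylating glycine, ran the other way from Mat1a. It was at 1576, 1329 and 1073 CPM in STAM + Atglistatin livers, 1171, 1169 and 1881 CPM in STAM livers and 1998, 2262 and 2086 CPM in chow livers. Both STAM groups lay below chow in every library, and STAM replicate 3 was well above its group. Gnmt fell by 0.67 ± 0.17 in STAM + Atglistatin against chow (adjusted p = 0.0309), a call lost when STAM + Atglistatin replicate 5 or 6, or chow replicate 8 or 9, was left out (adjusted p = 0.0766 to 0.130). In STAM against chow its -0.59 ± 0.17 (adjusted p = 0.0655) did not pass, and without STAM replicate 3 it did (-0.85, adjusted p = 0.00358), as also without chow replicate 7 (adjusted p = 0.0309), with DESeq2 (0.0219), limma-voom (0.00323) or no low-count filter (0.000228).

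Cbs, cystathionine beta-synthase, diverts homocysteine to cysteine. It stood at 328, 325 and 191 CPM in STAM + Atglistatin livers, 328, 353 and 327 CPM in STAM livers and 480.1, 404 and 405 CPM in chow livers. STAM + Atglistatin replicate 6 was far below the other libraries of its group. Cbs fell by 0.61 ± 0.16 in STAM + Atglistatin against chow (adjusted p = 0.0442). The call sat at the threshold: it was lost without any one of STAM + Atglistatin replicates 5 and 6 and the 3 chow replicates (adjusted p = 0.0551 to 0.118), with library totals (0.0919) and with only the 2 groups fitted (0.109), and without replicate 6 the fold change was -0.40. The fold changes of Cbs against STAM (-0.26 ± 0.16, adjusted p = 0.683) and of STAM against chow (-0.36 ± 0.16, adjusted p = 0.326) did not pass.

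The remaining genes of the cycle did not pass in any comparison. Cth, cystathionine gamma-lyase, which releases cysteine, had 116, 88.1 and 122 CPM in STAM + Atglistatin livers, 128, 127 and 131 CPM in STAM livers and 123, 124 and 104 CPM in chow livers. Ahcy, which splits S-adenosylhomocysteine into homocysteine and adenosine, had 189, 177 and 202 CPM in STAM + Atglistatin livers, 234, 226 and 217 CPM in STAM livers and 177, 242 and 202 CPM in chow livers. In both genes every STAM + Atglistatin library was below every STAM library, with fold changes of -0.24 ± 0.14 (adjusted p = 0.603) for Cth and -0.25 ± 0.13 (adjusted p = 0.552) for Ahcy. Cth overlaps Gm43314 on the same strand over 2231 bases, with 773 counts over the 9 libraries for Gm43314 and 9380 for Cth. Dmgdh and Sardh are the mitochondrial dehydrogenases that strip the methyl groups of dimethylglycine, the by-product of Bhmt, and of sarcosine. Dmgdh had 188, 185 and 206 CPM in STAM + Atglistatin livers, 231, 208 and 212 CPM in STAM livers and 172, 266 and 270.1 CPM in chow livers. Sardh had 655, 637 and 597 CPM in STAM + Atglistatin livers, 736, 739 and 923 CPM in STAM livers and 513, 643 and 637 CPM in chow livers, with the STAM libraries above those of both other groups. Its fold changes were -0.34 ± 0.13 (adjusted p = 0.282) in STAM + Atglistatin against STAM and 0.42 ± 0.13 (adjusted p = 0.0780) in STAM against chow.

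**Figure D3:**
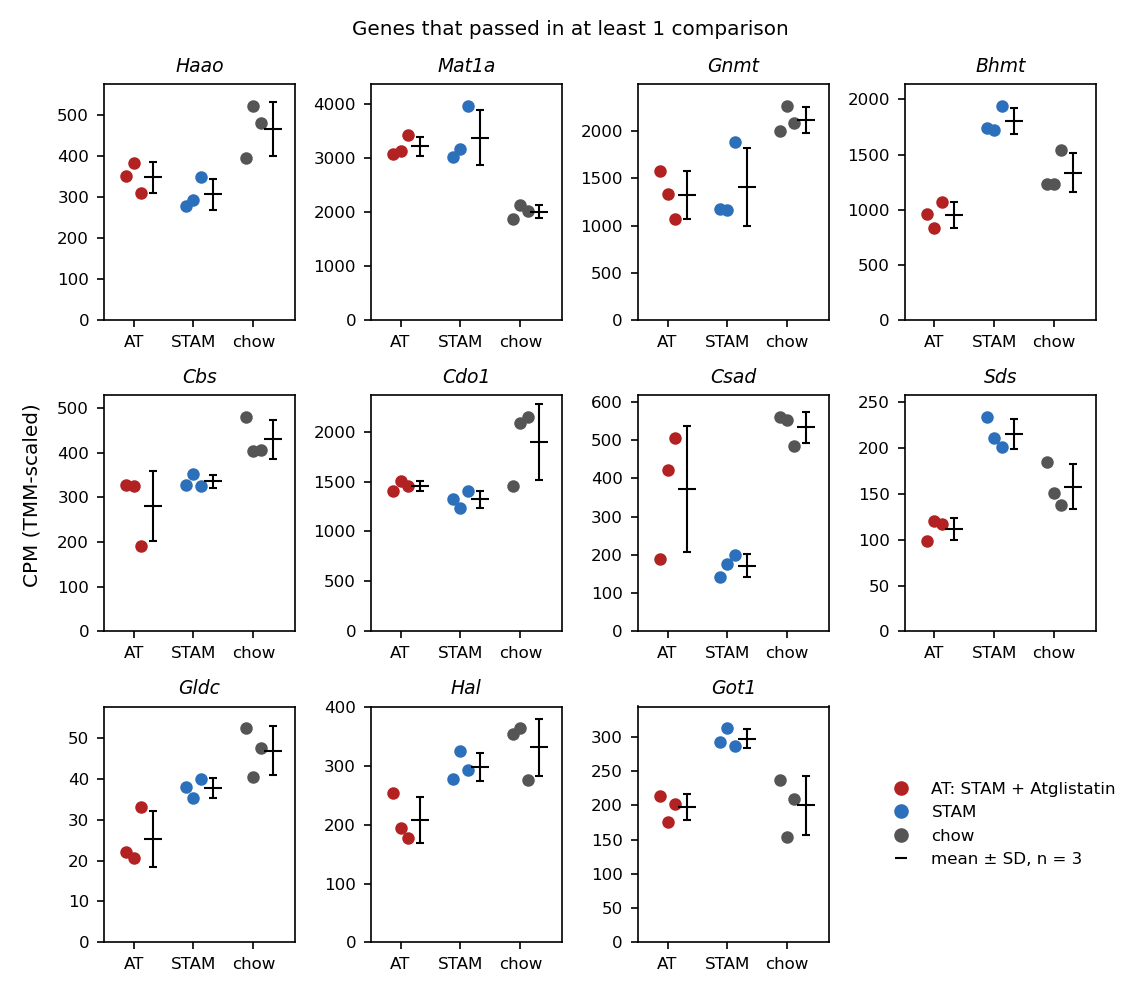
CPM by library (points, y axis from 0) of the 11 genes that passed in at least 1 comparison, in STAM + Atglistatin (AT), STAM and chow livers; black bars are mean ± SD of n = 3. Bhmt, Sds and Got1 are highest in the STAM livers, Mat1a is lowest in chow, and Csad is lowest in STAM, with 1 of 3 AT livers at 189 CPM beside the STAM range of 142 to 199.6 CPM.

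Cysteine is turned into taurine by the products of Cdo1 and Csad, and both genes passed. Csad, cysteine sulfinic acid decarboxylase, makes hypotaurine, the precursor of the taurine that conjugates bile acids, and it had the widest fold change of the 41 genes with all libraries in the fit. Its levels were 189, 422 and 506 CPM in STAM + Atglistatin livers, 142, 175 and 199.6 CPM in STAM livers and 561, 554 and 486 CPM in chow livers, or 373 ± 164, 172 ± 29.1 and 533 ± 41.3 CPM (mean ± SD, n = 3). Every STAM library was far below the lowest chow library. Of the STAM + Atglistatin libraries, replicate 6 was within the chow range, replicate 5 below it and replicate 4 within the STAM range. Csad fell by 1.63 ± 0.24 in STAM against chow (adjusted p = 0.000412, 1.03e-29 to 0.00657 over 12 alternatives). It rose by 1.11 ± 0.24 in STAM + Atglistatin against STAM (adjusted p = 0.0182), a call lost with DESeq2 (0.0673) and without STAM + Atglistatin replicate 5 or 6 or STAM replicate 1 or 2 (adjusted p = 0.0887 to 0.157). Against chow the STAM + Atglistatin value of -0.52 ± 0.24 (adjusted p = 0.312) did not pass, and with no low-count filter it did (0.00425). Csad (chromosome 15, 102176999 to 102204724, minus strand) overlaps Zfp740 on the other strand, and whether the authors counted by strand is not given. Zfp740 had 755 counts over the 9 libraries and Csad 28399.

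Cdo1, cysteine dioxygenase, makes the substrate of Csad. Its levels were 1405, 1502 and 1454 CPM in STAM + Atglistatin livers, 1328, 1234 and 1403 CPM in STAM livers and 1458, 2082 and 2146 CPM in chow livers. Chow replicate 7 was within the STAM + Atglistatin range, and the other chow libraries were far above it. Cdo1 fell by 0.52 ± 0.13 in STAM against chow (adjusted p = 0.0329), and leaving out any library other than chow replicate 7 ended the call (adjusted p = 0.0616 to 0.173), as did fitting only the 2 groups (0.0742). Its 0.14 ± 0.13 (adjusted p = 0.825) in STAM + Atglistatin against STAM did not pass, although the libraries did not overlap. In STAM + Atglistatin against chow, -0.38 ± 0.13 (adjusted p = 0.146) did not pass, and it did with limma-voom (0.0282) and without chow replicate 7 (0.00201).

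Of the 8 genes of serine, glycine and glyoxylate, Sds and Gldc passed. Sds, serine dehydratase, which turns serine into pyruvate and is a textbook gene of gluconeogenesis from amino acids, was at 98.0, 120.3 and 117 CPM in STAM + Atglistatin livers, 234, 211 and 202 CPM in STAM livers and 185, 150.4 and 138 CPM in chow livers. STAM was highest, chow intermediate and STAM + Atglistatin lowest, with no overlap between any pair of groups. It fell by 0.95 ± 0.14 in STAM + Atglistatin against STAM (adjusted p = 0.000500), which held in all 12 alternatives (adjusted p = 5.75e-09 to 0.00742). Its fall of 0.50 ± 0.14 against chow (adjusted p = 0.0487) was close to the threshold and was lost with library totals (0.162), limma-voom (0.0697), only the 2 groups fitted (0.108), and without chow replicate 7 or 8 or any STAM + Atglistatin replicate (adjusted p = 0.0772 to 0.207). STAM against chow gave 0.45 ± 0.14 (adjusted p = 0.0800), which passed with DESeq2 (0.0315), limma-voom (0.00634), no low-count filter (0.0397) and when chow replicate 7 was left out (0.0105). Sds (chromosome 5, 120476526 to 120483932, plus strand) overlaps Plbd2 on the other strand over 651 bases, with 4632 counts over the 9 libraries for Plbd2 and 12782 for Sds. Reads within the shared bases cannot be told apart if strand was not used.

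Gldc and Amt encode parts of the mitochondrial glycine cleavage system, which breaks glycine down and hands a carbon to folate. Gldc had 22.0, 20.7 and 33.1 CPM in STAM + Atglistatin livers, 37.9, 35.3 and 40.0 CPM in STAM livers and 52.4, 40.5 and 47.6 CPM in chow livers. It fell by 0.89 ± 0.18 in STAM + Atglistatin against chow (adjusted p = 0.00815), lost without STAM + Atglistatin replicate 4 or 5 (adjusted p = 0.0572 to 0.0606). Against STAM its -0.58 ± 0.19 (adjusted p = 0.174) did not pass, with all 3 libraries below STAM, and it did without STAM + Atglistatin replicate 6 (0.0237). Amt had 45.4, 38.6 and 41.1 CPM in STAM + Atglistatin livers, 50.3, 53.5 and 69.9 CPM in STAM livers and 58.4, 59.5 and 54.8 CPM in chow livers, again lowest with the inhibitor, with fold changes of -0.47 ± 0.15 (adjusted p = 0.174) against STAM and -0.47 ± 0.15 (adjusted p = 0.110) against chow. Neither passed.

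The hydroxymethyltransferases that interconvert serine and glycine, Shmt1 in the cytosol and Shmt2 in mitochondria, varied within groups as much as between them. Shmt1 ranged over 107 to 172 CPM in STAM + Atglistatin, 106 to 161 CPM in STAM and 101 to 188 CPM in chow. Shmt2 ranged over 80.5 to 124 CPM in STAM + Atglistatin, 101 to 133 CPM in STAM and 91.7 to 121 CPM in chow. Glyctk, glycerate kinase, had 253, 234 and 199 CPM in STAM + Atglistatin livers, 196, 241 and 210.3 CPM in STAM livers and 147, 173 and 184 CPM in chow livers, with both STAM groups above every chow library, and fold changes of 0.36 ± 0.13 (adjusted p = 0.179) for STAM and 0.45 ± 0.13 (adjusted p = 0.0769) for STAM + Atglistatin against chow that did not pass. Agxt and Agxt2 encode transaminases of glyoxylate. Agxt ranged over 113 to 166 CPM in STAM + Atglistatin, 138 to 169.8 CPM in STAM and 157 to 249 CPM in chow, and its -0.60 ± 0.17 (adjusted p = 0.0587) in STAM + Atglistatin against chow did not pass. Agxt2 had 147, 127 and 164 CPM in STAM + Atglistatin livers, 164, 177 and 160.0 CPM in STAM livers and 129.7, 156 and 132 CPM in chow livers, with STAM above chow by 0.26 ± 0.13 (adjusted p = 0.363).

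Of the 5 genes that move amino groups through glutamate, 1 passed. Got1, the cytosolic aspartate aminotransferase, passed in both comparisons that involve STAM. Its levels were 214, 176 and 203 CPM in STAM + Atglistatin livers, 292, 313 and 287 CPM in STAM livers and 237, 154 and 209 CPM in chow livers. The STAM libraries were above all others, and STAM + Atglistatin lay within the chow range. Got1 fell by 0.59 ± 0.14 in STAM + Atglistatin against STAM (adjusted p = 0.0446) and rose by 0.57 ± 0.14 in STAM against chow (adjusted p = 0.0310). Both values are measured against the same STAM libraries, and both calls were near the threshold. The first was lost without any single library (adjusted p = 0.0886 to 0.231) and with library totals (0.0705), and the second without any single library other than chow replicate 7 (adjusted p = 0.0704 to 0.164). Got2, its mitochondrial counterpart, had 702, 684 and 607 CPM in STAM + Atglistatin livers, 747, 720.3 and 832 CPM in STAM livers and 658, 655 and 633 CPM in chow livers. Its STAM libraries were also above those of both other groups, with -0.21 ± 0.11 (adjusted p = 0.573) against STAM and 0.24 ± 0.11 (adjusted p = 0.324) for STAM against chow, neither of which passed.

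The alanine aminotransferases did not pass. Gpt, mainly cytosolic, ranged over 186 to 197 CPM in STAM + Atglistatin, 179.6 to 227 CPM in STAM and 154 to 196 CPM in chow. Gpt2, mitochondrial, ranged over 224 to 277 CPM in STAM + Atglistatin, 248 to 411 CPM in STAM and 247 to 326 CPM in chow, with STAM replicate 3 above all other libraries. Glud1, glutamate dehydrogenase, which releases ammonia from glutamate, had 584, 612 and 702 CPM in STAM + Atglistatin livers, 564, 520.1 and 619 CPM in STAM livers and 621, 756 and 734 CPM in chow livers. Every STAM library of Glud1 was below every chow library, and its -0.31 ± 0.12 (adjusted p = 0.216) did not pass, except with limma-voom (0.0405).

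Promoter windows are shown for Bhmt and Got1, which fell with the inhibitor, and for Csad, which rose. Each is the 250 bases before a RefSeq transcript start on GRCm38.p6, 5' to 3' on the gene's strand (minus for all 3), at chr13:93637759-93638008 for Bhmt, chr19:43524606-43524855 for Got1 and chr15:102189044-102189293 for Csad, which has another RefSeq start whose window is not printed. Capitals mark the nuclear receptor half-site AGGTCA and the CCAAT box CCAAT, on either strand.
Bhmt: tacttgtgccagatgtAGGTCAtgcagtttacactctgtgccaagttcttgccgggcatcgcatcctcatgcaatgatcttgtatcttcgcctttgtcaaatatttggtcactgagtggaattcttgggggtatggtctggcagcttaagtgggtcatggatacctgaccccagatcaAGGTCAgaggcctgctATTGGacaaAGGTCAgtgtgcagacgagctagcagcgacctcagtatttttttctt
Got1: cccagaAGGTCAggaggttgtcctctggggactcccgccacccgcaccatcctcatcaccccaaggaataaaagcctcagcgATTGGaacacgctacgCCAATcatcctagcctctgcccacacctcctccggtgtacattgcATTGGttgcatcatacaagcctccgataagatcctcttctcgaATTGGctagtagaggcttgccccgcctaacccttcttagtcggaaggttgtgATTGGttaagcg
Csad: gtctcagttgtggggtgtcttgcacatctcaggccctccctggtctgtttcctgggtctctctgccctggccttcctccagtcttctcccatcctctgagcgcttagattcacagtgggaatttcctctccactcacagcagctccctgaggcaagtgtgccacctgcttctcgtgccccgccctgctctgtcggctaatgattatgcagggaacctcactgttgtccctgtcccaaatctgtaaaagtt
The Bhmt window holds 3 AGGTCA half-sites, at 234, 72 and 47 bases before the start, and 1 CCAAT box. GENCODE places the Bhmt gene at 93616675 to 93637961. Most of the window lies inside that gene, with the CCAAT box and the half-sites at 72 and 47 bases. The Csad window shown lies wholly inside the GENCODE gene (102176999 to 102204724). Which starts were used in these livers was not tested. The Got1 window holds 1 half-site and 5 CCAAT boxes, and the Csad window shown holds neither. The window of the other Csad start holds 1 CCAAT box, 75 bases before that start. Over all 32851 RefSeq windows of the same length, 14.0% hold AGGTCA and 33.8% hold CCAAT. Among 38 windows of 35 matched genes of the set these shares were 39.5% and 50.0%. These motifs were chosen after the windows had been read. Of 6 other motifs searched on both strands, TGTTCT (a glucocorticoid receptor half-site) was in 2 of the 38 windows and TTGCNNAA (C/EBP) in 4. The motifs TGTTTAC (FOXO), TGACGTCA (cyclic AMP response element), TGATGNAAT (ATF4) and the PPAR element made of AGGTCA repeats with 1 base between them were in 0 of the 38. Over all windows the 6 shares, in the same order, were 16.1%, 9.56%, 3.17%, 1.55%, 0.816% and 0.0335%. A match is a stretch of letters and not a measured binding site.

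Of the 6 genes of the kynurenine route of tryptophan, 1 passed. Haao, hydroxyanthranilate dioxygenase, which makes the precursor of quinolinate and so of NAD, was at 350.4, 384 and 309 CPM in STAM + Atglistatin livers, 279, 292 and 349 CPM in STAM livers and 394, 522 and 481 CPM in chow livers. Both STAM groups lay below every chow library. Haao fell by 0.60 ± 0.14 in STAM against chow (adjusted p = 0.0140), lost when chow replicate 8 or 9, or STAM replicate 1 or 2, was left out (adjusted p = 0.0560 to 0.108). Its -0.42 ± 0.14 (adjusted p = 0.106) in STAM + Atglistatin against chow did not pass, and it did with limma-voom (0.0381), no low-count filter (0.0426) and when chow replicate 7 was left out (0.0146).

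Upstream of Haao, Tdo2, the dioxygenase that opens the ring of tryptophan, had 1502, 1271 and 1517 CPM in STAM + Atglistatin livers, 1625, 1610.5 and 1523 CPM in STAM livers and 1134, 1457 and 1422 CPM in chow livers. Kmo, the monooxygenase of kynurenine, had 243, 210.2 and 270.1 CPM in STAM + Atglistatin livers, 309, 297 and 277 CPM in STAM livers and 191, 258 and 268 CPM in chow livers. In both, STAM was above the other groups without overlap, but the fold changes did not pass: -0.15 ± 0.12 (adjusted p = 0.782) and -0.29 ± 0.14 (adjusted p = 0.506) for STAM + Atglistatin against STAM, and 0.25 ± 0.12 (adjusted p = 0.365) and 0.30 ± 0.14 (adjusted p = 0.328) for STAM against chow. Kmo overlaps Fh1 on the other strand over 5255 bases, with 22770 counts over the 9 libraries for Fh1 and 20383 for Kmo. Reads within the shared bases cannot be told apart if strand was not used, and how many reads lie there is not known. Kynu, kynureninase, had 83.0, 56.9 and 80.2 CPM in STAM + Atglistatin livers, 99.4, 101 and 83.5 CPM in STAM livers and 87.5, 118 and 94.6 CPM in chow livers, with STAM + Atglistatin below both other groups, at -0.37 ± 0.16 (adjusted p = 0.415) against STAM and -0.45 ± 0.16 (adjusted p = 0.168) against chow. Acmsd, which steers the route away from NAD, ranged over 21.1 to 35.9 CPM in STAM + Atglistatin, 34.5 to 57.6 CPM in STAM and 25.9 to 59.4 CPM in chow, and its -0.79 ± 0.28 (adjusted p = 0.252) against STAM passed only with no low-count filter (0.00154). Afmid, the formamidase, had 19 to 51 counts per library, the lowest of the set. Its fold changes of -0.02 ± 0.45 (adjusted p = 0.996) against STAM, -0.55 ± 0.44 (adjusted p = 0.655) for STAM against chow and -0.57 ± 0.44 (adjusted p = 0.624) for STAM + Atglistatin against chow did not pass. Afmid overlaps Tk1 on the other strand over 169 bases, with 1577 counts over the 9 libraries for Tk1 and 324 for Afmid. It also overlaps Gm20708 on the same strand over 13981 bases, with 0 counts for Gm20708. How reads shared by Afmid and Gm20708 were counted is not known, so the low count may not show low abundance.

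None of the 5 genes of tyrosine breakdown passed. Tat, tyrosine aminotransferase, the first step and a classic target of glucocorticoids, varied widely within groups, at 93.9, 100.3 and 326 CPM in STAM + Atglistatin livers, 274, 141 and 142 CPM in STAM livers and 236, 460.1 and 565 CPM in chow livers. STAM + Atglistatin replicate 6 was far above the other libraries of its group and above every STAM library. These values are given for that spread, which was seen first. The fold changes of Tat were -0.10 ± 0.39 (adjusted p = 0.972) against STAM, -1.18 ± 0.39 (adjusted p = 0.122) for STAM against chow and -1.28 ± 0.39 (adjusted p = 0.0879) for STAM + Atglistatin against chow. None passed. The last was -2.11 without STAM + Atglistatin replicate 6, at an adjusted p of 0.000908, and it also passed with limma-voom, with no low-count filter, and when chow replicate 7 was left out (0.00250, 6.20e-18 and 0.00795). The STAM against chow value passed with limma-voom (0.0110), no low-count filter (3.25e-15), only the 2 groups fitted (0.0460) and without chow replicate 7 (0.0131). The Tat libraries overlapped in both comparisons with chow, and the values with no low-count filter lie far below those of the other fits. Why they do was not tested, and they are not taken as stronger evidence. The 4 enzymes that follow were steadier. Hpd, hydroxyphenylpyruvate dioxygenase, ranged over 720.3 to 1060.4 CPM in STAM + Atglistatin, 882 to 1219.7 CPM in STAM and 707 to 992 CPM in chow. Hgd, homogentisate dioxygenase, ranged over 577 to 680.1 CPM in STAM + Atglistatin, 591 to 651 CPM in STAM and 473 to 591 CPM in chow. Gstz1, maleylacetoacetate isomerase, ranged over 783 to 791 CPM in STAM + Atglistatin, 750.3 to 872 CPM in STAM and 616 to 783 CPM in chow. Fah, which ends the route in fumarate and acetoacetate, ranged over 525 to 595 CPM in STAM + Atglistatin, 526 to 631 CPM in STAM and 516 to 630.0 CPM in chow. Each pair of groups overlapped in each of these 4 genes. Hpd overlaps Psmd9 and Gstz1 overlaps Pomt2 on the other strand, with 2642 and 770 counts for the partners, far below those of both enzymes.

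Of the 4 genes that take histidine to glutamate and a folate-bound carbon, 1 passed. Hal, histidine ammonia-lyase, had 253, 194 and 178 CPM in STAM + Atglistatin livers, 278, 325 and 292 CPM in STAM livers and 355, 365 and 276 CPM in chow livers. Hal fell by 0.67 ± 0.15 in STAM + Atglistatin against chow (adjusted p = 0.0121), lost without STAM + Atglistatin replicate 5 or 6 or chow replicate 8 (adjusted p = 0.0611 to 0.0770). Against STAM, where the libraries did not overlap, -0.52 ± 0.15 (adjusted p = 0.105) did not pass, and it did with DESeq2 (0.0318), limma-voom (0.0386), no low-count filter (0.00891), only the 2 groups fitted (0.0379) and without STAM + Atglistatin replicate 4 (0.0306). Uroc1, urocanase, the second enzyme, ranged over 192 to 262 CPM in STAM + Atglistatin, 205 to 279 CPM in STAM and 261 to 282 CPM in chow. Amdhd1, the third, had 157, 126 and 131 CPM in STAM + Atglistatin livers, 174, 191 and 159 CPM in STAM livers and 185, 193 and 186 CPM in chow livers. Its group means had the order of those of Hal, with -0.34 ± 0.12 (adjusted p = 0.281) against STAM and -0.44 ± 0.12 (adjusted p = 0.0533) against chow, and neither passed. Ftcd, which transfers the last carbon to folate, had 502, 492 and 429.8 CPM in STAM + Atglistatin livers, 499, 536 and 490.3 CPM in STAM livers and 467, 416 and 488 CPM in chow livers, with STAM above chow, at 0.16 ± 0.11 (adjusted p = 0.612). Hal and Sds are known to be expressed mainly by periportal hepatocytes. The summed level of 9 other periportal genes was 5026 to 5689 CPM in STAM + Atglistatin, 6786 to 7005 CPM in STAM and 5857 to 7748 CPM in chow, and that of 10 pericentral genes was 6972 to 7049 CPM in STAM + Atglistatin, 6011 to 7564 CPM in STAM and 4217 to 7653 CPM in chow. Within each list the genes did not move together. Of the periportal genes 1 fell in STAM + Atglistatin against STAM (log2 fold changes -0.76 to 0.49). In STAM against chow 1 rose, and in STAM + Atglistatin against chow 2 fell. Of the pericentral genes, in this order of comparisons, 1 rose and 2 fell (-0.91 to 1.72), 2 rose and 1 fell, and 1 rose. Of all tested genes, 1.79%, 3.94% and 4.08% passed. The part of zonation in the values of Hal and Sds was not tested.

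None of the 3 genes of lysine and proline passed. Aass, which carries out the first 2 steps of lysine breakdown, had 156, 138 and 165 CPM in STAM + Atglistatin livers, 177, 201 and 185 CPM in STAM livers and 144, 172 and 168 CPM in chow livers. Gcdh, glutaryl-CoA dehydrogenase, shared by lysine and tryptophan, had 316, 289.6 and 346 CPM in STAM + Atglistatin livers, 410.0, 369 and 360.0 CPM in STAM livers and 241, 341 and 297 CPM in chow livers. Both were highest in STAM without overlap, with 0.38 ± 0.13 (adjusted p = 0.158) for Gcdh and 0.22 ± 0.12 (adjusted p = 0.446) for Aass against chow, which did not pass. Prodh, proline dehydrogenase, ranged over 60.9 to 86.9 CPM in STAM + Atglistatin, 45.7 to 82.2 CPM in STAM and 57.2 to 92.3 CPM in chow, with overlapping groups. Prodh overlaps Dgcr6 on the other strand, with 2328 counts for Dgcr6 and 5513 for Prodh.

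**Figure D4:**
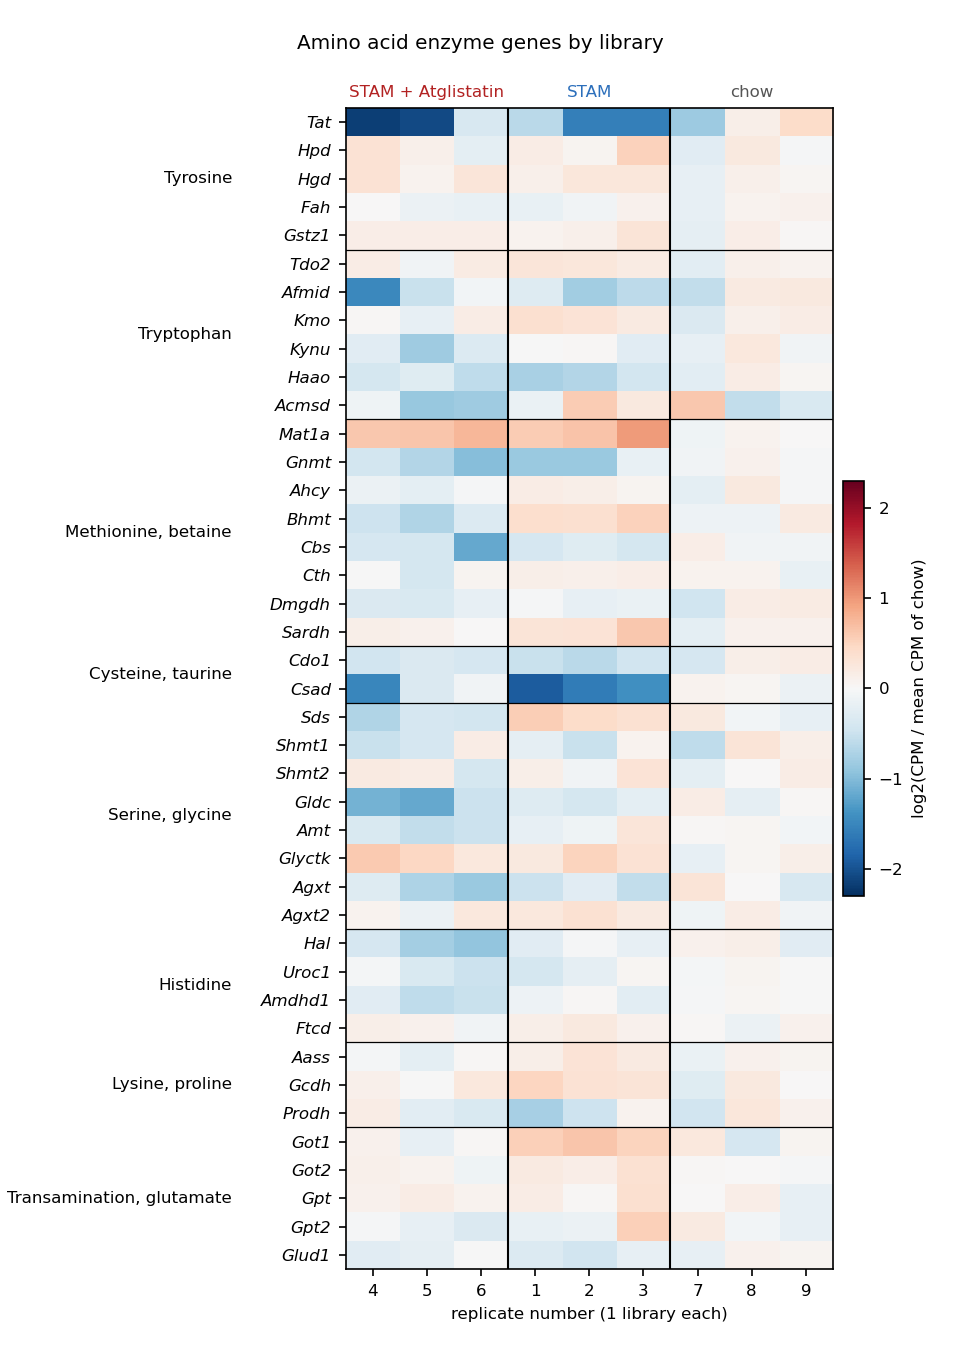
Level of each of the 41 genes (rows, grouped by amino acid) in each library (columns, by group and replicate number), as log2 of CPM over the chow mean, blue for lower and red for higher. Mat1a is red in all 6 libraries of both STAM groups, Csad is blue in the STAM libraries and in STAM + Atglistatin replicate 4, and Tat differs widely between libraries of 1 group.

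Other genes of the same routes were taken from lists of 73 genes with a row in the table, of which 66 were tested. In STAM + Atglistatin against STAM 1 rose and 2 fell, in STAM against chow 3 rose and 5 fell, and in STAM + Atglistatin against chow 3 rose and 6 fell. Of all tested genes, 1.79%, 3.94% and 4.08% passed in either direction in these comparisons. With a library left out, the counts in this order were 0 to 2 and 1 to 3, 2 to 4 and 4 to 7, and 0 to 3 and 2 to 7, lowest without STAM + Atglistatin replicate 5 for those that fell in the last. Their median log2 fold changes were -0.07, 0.01 and -0.07 in this order of comparisons, against -0.00071, -0.0014 and -0.0041 over all tested genes. Oat, ornithine aminotransferase, which yields glutamate from ornithine and is also a marker of pericentral hepatocytes, had 274, 249 and 382 CPM in STAM + Atglistatin livers, 630.1, 513 and 556 CPM in STAM livers and 224, 330.5 and 273 CPM in chow livers. It fell by 0.91 ± 0.16 in STAM + Atglistatin against STAM (adjusted p = 0.00421) and rose by 1.04 ± 0.17 in STAM against chow (adjusted p = 0.000821). Aadat, an aminotransferase of lysine and kynurenine breakdown, fell by 0.71 ± 0.14 against STAM (adjusted p = 0.00685, and 0.0549 without STAM replicate 2) and by 0.70 ± 0.14 against chow in the STAM + Atglistatin livers (adjusted p = 0.00464). Gcat, of threonine breakdown, fell by 1.19 ± 0.14 in STAM (adjusted p = 4.12e-05) and by 1.02 ± 0.14 in STAM + Atglistatin (adjusted p = 0.000198), each against chow. Among users of S-adenosylmethionine, Pemt, which methylates phosphatidylethanolamine, rose by 0.53 ± 0.12 in STAM + Atglistatin against STAM (adjusted p = 0.0248, lost without STAM + Atglistatin replicate 4 or 5 or STAM replicate 1 or 2 at 0.0797 to 0.191). Nnmt, which methylates nicotinamide, rose by 1.28 ± 0.20 in STAM against chow (adjusted p = 0.000839). Ethe1, of sulfide oxidation, fell by 0.71 ± 0.15 in STAM + Atglistatin against chow (adjusted p = 0.0106, and 0.0766 without STAM + Atglistatin replicate 5).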

How the data were processed

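The authors deposited 1 table of read counts per gene for 9 liver libraries, and every sample column was matched to a sample by its title. Reads were aligned with STAR to GRCm38, per the submitters' processing notes. No source used here names the counting tool, the annotation or the use of strand. The treatment label of the STAM and chow samples goes against their titles and the series' design text, so groups were taken from the titles. Library depth was 7380365 to 9886129 counts. The rows that name no gene (rRNA) were left out of this depth. They held 0.260 to 0.529% of the counts of gene and rRNA rows together.

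Counts were fitted with edgeR 4.0.16 in R 4.3.3: TMM factors, filterByExpr on the groups (12660 genes tested), glmQLFit and glmQLFTest, 1 fit to all 9 libraries and 3 contrasts, p-values adjusted by Benjamini-Hochberg over the 12660 genes, and a threshold of 0.05. SE is the fold change over the square root of F. The procedure was run on simulated data with planted log2 fold changes of at least 1 in size. Recovery of smaller changes, such as those of every gene of the set that passed apart from Csad, was not tested. The 12 alternatives per comparison were DESeq2 size factors, library totals, no low-count filter, DESeq2 1.42.0, limma 3.58.1 (voom with sample weights), only the 2 groups compared, and each of 6 libraries left out.

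The 41 genes and all lists were chosen with earlier results of these data known. CPM is given per library for genes that passed in at least 1 comparison or whose groups did not overlap, and other pathway genes by counts with at most 3 named per comparison. Promoters came from RefSeq (GRCm38.p6), gene positions from GENCODE on GRCm38; 35 of 41 genes matched a promoter entry, all but Sds, Mat1a, Gpt, Kynu, Cth and Cdo1.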

Additional observations from a re-analysis of the deposited data

How the results depend on the processing

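Of the calls among the 41 genes, 2 of 4 in STAM + Atglistatin against STAM (Bhmt and Sds), 2 of 5 in STAM against chow (Csad and Mat1a) and 1 of 7 in STAM + Atglistatin against chow (Mat1a) were kept in all 12 alternatives, and no call changed sign in any of them. Of the genes that did not pass, 3, 8 and 8 in this order of comparisons passed in at least 1 alternative, and 34, 28 and 26 in none. Beyond the genes whose alternatives are given above, these were Sardh, Glyctk and Gcdh in STAM against chow, and Dmgdh, Glyctk, Agxt and Amdhd1 in STAM + Atglistatin against chow. Acmsd in STAM + Atglistatin against STAM and Csad in STAM + Atglistatin against chow passed only with no low-count filter. That fit gave adjusted p-values for Tat far below those of the other fits, and why was not tested.
In STAM against chow, 2 genes were higher with all libraries and TMM, against 6 with library totals, 5 with no low-count filter, 5 with DESeq2 and 4 with limma-voom, and 1 to 3 with a library left out. Lower genes numbered 3, against 5 with no low-count filter, 6 with limma-voom and 1 to 5 with a library left out. Of all tested genes 3.94% passed. With library totals, no low-count filter, DESeq2 and limma-voom this share was 4.36%, 3.6%, 5.46% and 5.76%, in this order. With a library left out it was 2.22 to 5.54%.
In STAM + Atglistatin against STAM, 1 gene was higher, against 0 with DESeq2 and 0 to 1 with a library left out. Lower genes numbered 3, against 5 with no low-count filter and 2 to 3 with a library left out. Of all tested genes 1.79% passed, against 1.9% with no low-count filter, 2.44% with DESeq2 and 1 to 1.46% with a library left out.
In STAM + Atglistatin against chow, 1 gene was higher, against 2 with library totals, no low-count filter or DESeq2, and 1 to 2 with a library left out. Lower genes numbered 6, against 3 with library totals, 11 with no low-count filter, 3 with only the 2 groups fitted and 0 to 9 with a library left out. Of all tested genes 4.08% passed. With library totals, no low-count filter, DESeq2 and only the 2 groups fitted this share was 4.29%, 3.67%, 5.39% and 3.09%. With a library left out it was 2.36 to 5.79%.
Over all genes, calls numbered 226 in STAM + Atglistatin against STAM (392 with no low-count filter, 131 to 191 with a library left out), 499 in STAM against chow (291 to 724 with a library left out) and 516 in STAM + Atglistatin against chow (309 to 757 with a library left out).
Some values that did not pass turned their sign. Gnmt in STAM + Atglistatin against STAM ranged over -0.23 to 0.18, Mat1a over -0.15 to 0.058 and Tat over -0.93 to 0.29 with a library left out. Got1 in STAM + Atglistatin against chow was 0.057 with library totals, 0.028 with limma-voom and -0.18 to 0.12 with a library left out. The causes were not tested. Library totals moved the median of all genes by 0.087 in STAM against chow and by 0.082 in STAM + Atglistatin against chow.
With 3 libraries a group, values that did not pass are not shown to be equal. The lowest total over the 9 libraries was 324 counts (Afmid), and whether depth kept any gene from passing was not tested. No paired analysis was possible because the groups share no replicate numbers.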

Other observations

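Among 20 genes that encode regulators of amino acid catabolism, 0 passed in any comparison with edgeR fitted to all 9 libraries after the low-count filter. At an unadjusted p under 0.05 there were 2 in STAM + Atglistatin against STAM, 3 in STAM against chow and 4 in STAM + Atglistatin against chow, where 10.2%, 14.5% and 14.8% of all tested genes were. With edgeR fitted to only the 2 groups compared, 1 passed, Trib3, lower in STAM + Atglistatin against STAM. DESeq2 called 1, Chac1, higher in STAM against chow, limma-voom called 1, Klf15, lower in STAM + Atglistatin against chow, and with no low-count filter 1, 3 and 4 passed in the 3 comparisons in the order above. Klf15, a glucocorticoid-induced activator of amino acid breakdown, had 36.6, 43.9 and 56.5 CPM in STAM + Atglistatin livers, 74.2, 64.6 and 57.2 CPM in STAM livers and 42.5, 79.7 and 95.3 CPM in chow livers. Nr3c1, the glucocorticoid receptor, had 64.7, 50.8 and 76.5 CPM in STAM + Atglistatin livers, 70.3, 69.4 and 67.8 CPM in STAM livers and 65.6, 80.1 and 61.2 CPM in chow livers. Both Klf15 and Tat were lowest among chow libraries in replicate 7. Hnf4a, a factor of hepatocyte identity, had 290.3, 293 and 289.8 CPM in STAM + Atglistatin livers, 253, 297 and 285 CPM in STAM livers and 287, 353 and 358 CPM in chow livers. Cebpa, which drives many urea cycle and amino acid genes, had 264, 271 and 196 CPM in STAM + Atglistatin livers, 267, 268 and 261 CPM in STAM livers and 267, 336 and 250.3 CPM in chow livers. Ppargc1a, a coactivator of gluconeogenesis, had 13.2, 10.1 and 16.5 CPM in STAM + Atglistatin livers, 15.3, 18.9 and 7.93 CPM in STAM livers and 8.03, 11.2 and 17.3 CPM in chow livers. Gcgr, the glucagon receptor, had 129.9, 124 and 135 CPM in STAM + Atglistatin livers, 134, 132 and 151 CPM in STAM livers and 119, 138 and 137 CPM in chow livers. Atf4, the factor of the response to amino acid shortage, had 140.0, 167 and 143 CPM in STAM + Atglistatin livers, 133, 117 and 123 CPM in STAM livers and 222, 125 and 126 CPM in chow livers, with chow replicate 7 above all other libraries.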
